A study of Mus musculus with 8 samples.

Results

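The genes described here are *Bcl6*, a transcriptional repressor, and 9 genes of the growth hormone (GH)-STAT5 axis, which are *Ghr*, *Jak1*, *Stat5a*, *Stat5b*, *Socs2*, *Cish*, *Igf1*, *Igfbp3* and *Igfbp4*. They were picked by symbol, with their levels in KIKO and WT mice already known, and they are 10 of the 31053 genes in a table of raw counts. All 10 were among the 11080 genes kept by a filter on low counts. The study asked whether visceral white adipose tissue (vWAT) is altered in KIKO mice, a model of Friedreich's ataxia, and sequenced vWAT RNA of 4 KIKO and 4 WT male mice aged 8 months, with 1 library per mouse. KIKO mice carry a knock-in and a knock-out allele in all cells of the body and are on the C57BL/6 strain. The WT mice were C57BL/6 littermates without these alleles. No treatment is given for either group. The titles call the depot epididymal, a fat pad that lies next to the epididymis.

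GH binds its receptor GHR on the cell surface, and the kinase JAK2 on the receptor then phosphorylates STAT5A and STAT5B. These move to the nucleus and bind paired TTC and GAA half-sites, by which they raise the transcription of *Socs2*, *Cish* and *Igf1*. The proteins SOCS2 and CISH damp the receptor in turn, while IGF1 is carried by binding proteins such as IGFBP3. BCL6 is a BTB zinc finger protein that keeps germinal centre B cells and follicular helper T cells in their state, and the sequence it binds resembles that of the STATs. GH lowers *Bcl6* mRNA in mouse liver and in cultured mouse 3T3-F442A adipocytes.

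The sequences printed here hold the STAT half-site pair TTCNNNGAA in promoters. *Bcl6* and *Cish* were the only members in whose promoter windows it was found. The windows were taken from RefSeq on GRCm38.p6 and reach from 250 bases before to 50 bases after each start site, and 9 of the 10 members had at least 1. *Socs2* had none. *Bcl6* has 2 start sites in that table on chromosome 16, minus strand, 7569 bases apart. The stretch at chr16:23981353-23981461 lies 178 to 70 bases before the second, downstream start site and held 3 pairs. The stretch at chr16:23988952-23988980 lies 128 to 100 bases before the first start site and held 1 pair. The stretch at chr9:107296654-107296683, on the plus strand of chromosome 9, spans the RefSeq start site of *Cish* and held 2 pairs with 2 bases between them. All are written 5′ to 3′ on the gene's strand, with each pair in capitals.
Bcl6 second start: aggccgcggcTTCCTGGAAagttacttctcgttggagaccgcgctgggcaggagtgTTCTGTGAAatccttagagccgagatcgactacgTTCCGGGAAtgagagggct
Bcl6 first start: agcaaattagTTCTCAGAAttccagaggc
Cish start: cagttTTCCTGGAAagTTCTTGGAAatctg

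The motif TTCNNNGAA is its own reverse complement, so that both strands are searched at once. It was found in 2726 of 32851 windows of all genes (8.3%), at least 2 copies in 150 windows (0.457%) and at least 3 copies in 11 windows (0.0335%). Of 27025 genes with a window, 2582 (9.55%) held it in at least 1. The 9-base form TTCCTGGAA stood in the second window of *Bcl6* and in that of *Cish*. Counted on either strand, it was in 265 windows of all genes (0.807%). These matches describe letters in the windows and not binding in vWAT, which was not measured. The second *Bcl6* start site is RefSeq's alone, since no transcript of the annotation used for positions (GENCODE M21) held the last bases of its window. The whole *Cish* window lay within a transcript of that annotation, in which the gene starts at 107296026, ahead of the window.

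The libraries held 2602189 to 3478539 counts in KIKO mice and 2936515 to 3119146 counts in WT mice. Levels are given as CPM, the count of a gene set against the total of its library, with the totals scaled by the TMM method so that most genes match between libraries, and log2 fold changes are those of KIKO over WT mice, each with its standard error (SE). Nothing in the labels says more of the mice than their genotype and number, so that the spread between mice is the spread between these 8 samples. The summed level of 10 adipocyte markers was 93849 to 103943 CPM in KIKO mice and 69362 to 94192 CPM in WT mice, while 6 of 8 epididymis markers were at 0 in all libraries. WT mouse 3 stood apart from the other WT mice. Its score on principal component 1 was 12.6, where KIKO mice had 4.04 to 24.0 and the other WT mice -38.6 to -8.43, so that values without it are given below where they differ most. Levels also moved with transcript length: across genes, which are not independent replicates, how far a gene lay above its 8-mouse mean had a Spearman's rho with exon length of -0.230 to -0.109 in KIKO mice and -0.102 to 0.279 in WT mice. A fit with a length trend is given beside each gene whose call it changed or whose value it moved by over 1.5 times. With it, *Zbtb16*, *Irf4* and *Cebpd*, the genes of the lists below that passed, no longer did, while *Ptprc* of the lists and *Igf1* of the members did.

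*Bcl6* was higher in vWAT of KIKO than of WT mice, and *Igf1* was the only other member whose groups did not overlap. The receptor *Ghr*, the kinase *Jak1* and both *Stat5* genes overlapped between genotypes, as did the feedback inhibitors *Socs2* and *Cish* and the binding proteins *Igfbp3* and *Igfbp4*. With edgeR's quasi-likelihood test and an adjusted p under 0.05 over all genes tested, 1 of the 10 members was called, *Bcl6*, against 75 of 11080 genes (0.677%), of which 31 were higher (0.28%) and 44 lower (0.397%) in KIKO mice. In DESeq2, *Bcl6* and *Igf1* were under 0.05, against 3.77% of the genes it gave an adjusted p. The groups did not overlap in 2 members, both with all KIKO above all WT mice. Of all genes tested, 8.45% had groups that did not overlap, with KIKO above WT mice in 3.89% and below in 4.56%. Since the members were chosen on this same contrast, nothing is read from these counts. The median log2 fold change was -0.00 over the members and -0.01 over all genes tested, with 5 of 10 members and 5433 of 11080 genes above 0, and 6 members lay within 0.2 of 0.

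**Figure D1:**
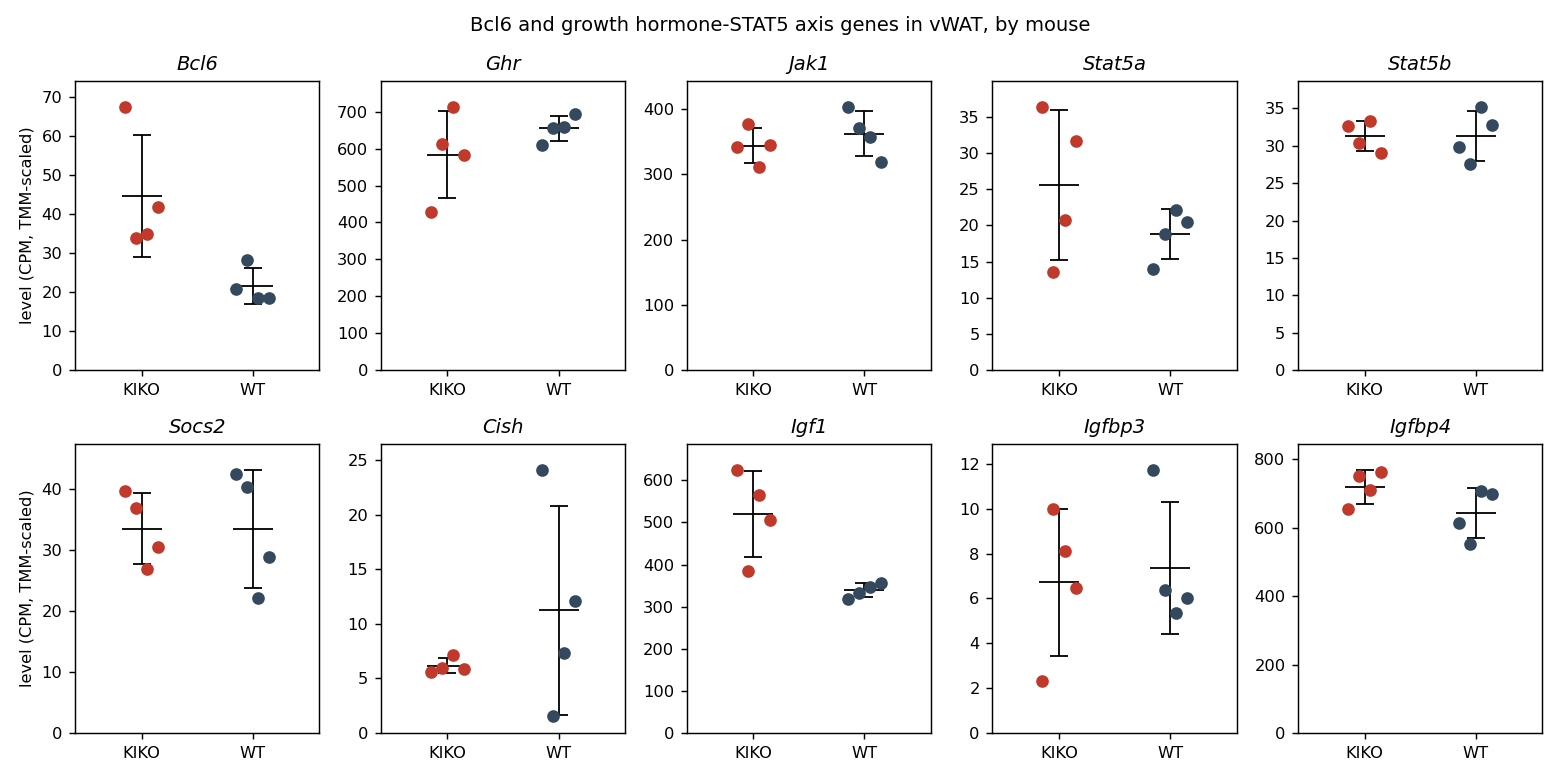
Level of each of the 10 genes (TMM-scaled CPM, linear axes from 0) in each KIKO and WT mouse, with 1 point per mouse and black bars for the mean and SD of 4 mice. The 4 KIKO mice lie above the 4 WT mice in *Bcl6* (34.0 CPM or more, against 28.2 CPM or less) and in *Igf1* (385 CPM or more, against 356 CPM or less), and the groups overlap in the other 8 genes.

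*Bcl6* (ENSMUSG00000022508, chromosome 16 of GRCm38 from 23965052 to 23988852) had 67.3, 34.0, 35.0 and 41.9 CPM in KIKO mice 1 to 4, against 20.9, 28.2, 18.4 and 18.4 CPM in WT mice 1 to 4. KIKO mouse 1 was the highest by far, and the lowest KIKO mouse still lay above the highest WT mouse. The mean was 44.5 ± 15.6 CPM in KIKO and 21.5 ± 4.61 CPM in WT mice (SD, n = 4 each), which rests on 85 to 204 counts per KIKO library and 55 to 93 counts per WT library. This was a log2 fold change of 1.05 (SE 0.22), or a 2.07-fold higher level. It was 0.78 without KIKO mouse 1 and 0.98 without WT mouse 3, and 1.12 with a length trend. The adjusted p of *Bcl6* was under 0.05 in 8 of 19 alternative fits, and of the fits on 7 mice only in that without WT mouse 3.

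Cells of other kinds that use *Bcl6* were looked at beside it. The summed level of 8 B cell markers was 245 to 547 CPM in KIKO and 297 to 501 CPM in WT mice, nearly all of it from *Ighm*, the heavy chain of IgM. *Cd79a*, a part of the B cell receptor, had 2 counts over all libraries, and *Cxcr5* and *Pdcd1*, receptors of follicular helper T cells, had 15 and 6 counts. KIKO mouse 1 had the highest *Bcl6* level and the lowest *Ighm* level of all mice (231 CPM). Macrophage markers moved with genotype: their summed level was 1904 to 2261 CPM in KIKO and 1505 to 1758 CPM in WT mice, 9 of 10 had a log2 fold change above 0, and 1 of the 10, *Lyz2*, which encodes lysozyme, passed the test and was higher in KIKO mice. The part of macrophages in the level of *Bcl6* was not tested. In bulk tissue, more cells of a type and more RNA per cell cannot be told apart.

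*Ghr* (ENSMUSG00000055737, chromosome 15 from 3317760 to 3583492), the GH receptor, had 428, 613, 712 and 583 CPM in KIKO mice 1 to 4, against 610, 655, 659 and 695 CPM in WT mice 1 to 4. The KIKO mice included both the lowest and the highest mouse, and the groups overlapped. The mean was 584 ± 117 CPM in KIKO and 655 ± 34.8 CPM in WT mice (SD, n = 4 each), with a log2 fold change of -0.16 (SE 0.15), or -0.05 with a length trend. KIKO mouse 1, the highest in *Bcl6*, was the lowest in *Ghr*, and without it the log2 fold change of *Ghr* was nearest to 0 of all fits on 7 mice (-0.04).

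*Jak1* (ENSMUSG00000028530, chromosome 4 from 101152367 to 101265282) encodes a kinase of interferon and interleukin receptors, among them those that signal through gp130. It had 343, 376, 311 and 344 CPM in KIKO mice 1 to 4, against 403, 371, 357 and 319 CPM in WT mice 1 to 4. The mice of both groups lay in nearly the same range, and the log2 fold change was -0.08 (SE 0.12), or 0.00 with a length trend. *Jak2*, the kinase of GHR itself and not a member, had 20.5, 18.8, 13.0 and 12.9 CPM in KIKO mice 1 to 4, against 13.6, 21.2, 16.7 and 12.1 CPM in WT mice 1 to 4. These groups overlapped as well, with a log2 fold change of 0.02 (SE 0.23).

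*Stat5a* (ENSMUSG00000004043) and *Stat5b* (ENSMUSG00000020919) encode the transcription factors that carry the GH signal to the nucleus, and lie next to each other on chromosome 11. *Stat5b* spans 100780731 to 100850724 and *Stat5a* spans 100859351 to 100885169, with 8626 bases between them. *Stat5a* had 36.3, 13.6, 20.7 and 31.6 CPM in KIKO mice 1 to 4, against 13.9, 18.8, 22.1 and 20.4 CPM in WT mice 1 to 4. KIKO mice 1 and 4 lay above all WT mice and KIKO mouse 2 below all of them. The mean was 25.6 ± 10.3 CPM in KIKO and 18.8 ± 3.51 CPM in WT mice (SD, n = 4 each), with a log2 fold change of 0.46 (SE 0.25), and of 0.25 to 0.65 with each mouse left out in turn. *Stat5b* had 32.7, 30.4, 33.4 and 29.0 CPM in KIKO mice 1 to 4, against 29.8, 27.6, 35.1 and 32.8 CPM in WT mice 1 to 4. It varied little between mice of either genotype, and its log2 fold change was 0.00 (SE 0.14), with a sign that changed between scalings, and was 0.03 with a length trend and 0.06 without WT mouse 3. Both genes are uncertain to the extent that reads can be shared: of all 75-base stretches of their transcripts, 387 were identical, which is 5.12% of those of *Stat5a* and 6.99% of those of *Stat5b*. *Stat5a* also overlaps *Stat3*, the STAT of gp130 cytokines, by 72 exon bases on the opposite strand. How strand was used in counting is not given in the sources used here.

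*Socs2* (ENSMUSG00000020027, chromosome 10 from 95385362 to 95417180), a target of STAT5 whose protein brings the GH receptor to degradation, had 39.6, 36.8, 26.9 and 30.5 CPM in KIKO mice 1 to 4, against 42.5, 40.3, 22.1 and 28.8 CPM in WT mice 1 to 4. The range of the KIKO mice lay inside that of the WT mice. The log2 fold change was -0.01 (SE 0.20), with a sign that changed between scalings, and was 0.13 with a length trend and -0.16 without WT mouse 3, the lowest mouse.

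*Cish* (ENSMUSG00000032578, chromosome 9 from 107296026 to 107302784), the other feedback inhibitor, had 5.61, 5.99, 7.13 and 5.86 CPM in KIKO mice 1 to 4, against 24.1, 1.51, 7.36 and 12.1 CPM in WT mice 1 to 4. The KIKO mice lay close together, whereas the WT mice lay on both sides of them, with the highest and the lowest mouse of all. The coefficient of variation was 10.9% in KIKO and 85.1% in WT mice (n = 4 each). These levels rest on few reads, with 15 to 22 counts per KIKO library and 5 to 76 counts per WT library. The log2 fold change of -0.86 (SE 0.50) moved to -0.16 without WT mouse 1, to -1.24 without WT mouse 2 and to -1.02 without WT mouse 3, and it was -0.28 in limma-voom. An antisense gene, *Gm17041*, overlaps 479 exon bases of *Cish* and is listed at 0 in all libraries.

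*Igf1* (ENSMUSG00000020053, chromosome 10 from 87858265 to 87937042), the growth factor that GH induces in liver and adipose tissue, had 624, 385, 565 and 506 CPM in KIKO mice 1 to 4, against 319, 333, 348 and 356 CPM in WT mice 1 to 4. All KIKO mice lay above all WT mice, with KIKO mouse 2 nearest to them. The mean was 520 ± 102 CPM in KIKO and 339 ± 16.4 CPM in WT mice (SD, n = 4 each). The log2 fold change was 0.62 (SE 0.14), or 1.54-fold, and was 0.74 without KIKO mouse 2, 0.63 without WT mouse 3 and 0.75 with a length trend. The adjusted p of *Igf1* was above 0.05 with all 8 mice and under it in 5 of 19 alternative fits. Macrophages and stromal progenitors also transcribe *Igf1*. Macrophage markers moved with genotype as given above. The summed level of 8 adipose progenitor markers was 3192 to 3783 CPM in KIKO and 2609 to 3072 CPM in WT mice. Most of it came from *Dcn*, with a mean of 2776 CPM in KIKO and 2091 CPM in WT mice. The 8 log2 fold changes went both ways, with a median of 0.11, a range of -0.36 to 0.77 and 5 of 8 above 0. Only *Cd248* of the 8 passed and was higher (0.77, SE 0.14, adjusted p = 0.0326 from edgeR). The summed level of 6 mesothelial markers overlapped, at 241 to 477 CPM in KIKO and 229 to 335 CPM in WT mice. Of the 5 tested, 4 had a log2 fold change above 0, with a range of -0.18 (*Msln*) to 1.15. Only *Krt19* passed and was higher (1.15, SE 0.21). The part of these cells in the level of *Igf1* was not tested.

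*Igfbp3* (ENSMUSG00000020427, chromosome 11 from 7206086 to 7213923), the main carrier of IGF1 in blood, had 2.31, 9.99, 8.10 and 6.44 CPM in KIKO mice 1 to 4, against 11.7, 6.36, 5.35 and 6.03 CPM in WT mice 1 to 4. The lowest mouse was a KIKO mouse and the highest a WT mouse, while the other mice of both groups lay between 5.35 and 9.99 CPM. There were 7 to 25 counts per KIKO library and 16 to 37 counts per WT library. The log2 fold change of -0.16 (SE 0.37) changed sign, to 0.13 without KIKO mouse 1 and to 0.16 without WT mouse 1, and was -0.28 without WT mouse 3.

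*Igfbp4* (ENSMUSG00000017493, chromosome 11 from 99041244 to 99054392), which binds IGF1 locally in adipose and other tissues, had 654, 750, 710 and 764 CPM in KIKO mice 1 to 4, against 615, 551, 709 and 699 CPM in WT mice 1 to 4. KIKO mice 2, 3 and 4 lay above all WT mice and KIKO mouse 1 among them. The mean was 719 ± 49.5 CPM in KIKO and 643 ± 74.5 CPM in WT mice (SD, n = 4 each), with a log2 fold change of 0.16 (SE 0.13) and of 0.21 without WT mouse 3.

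**Figure D2:**
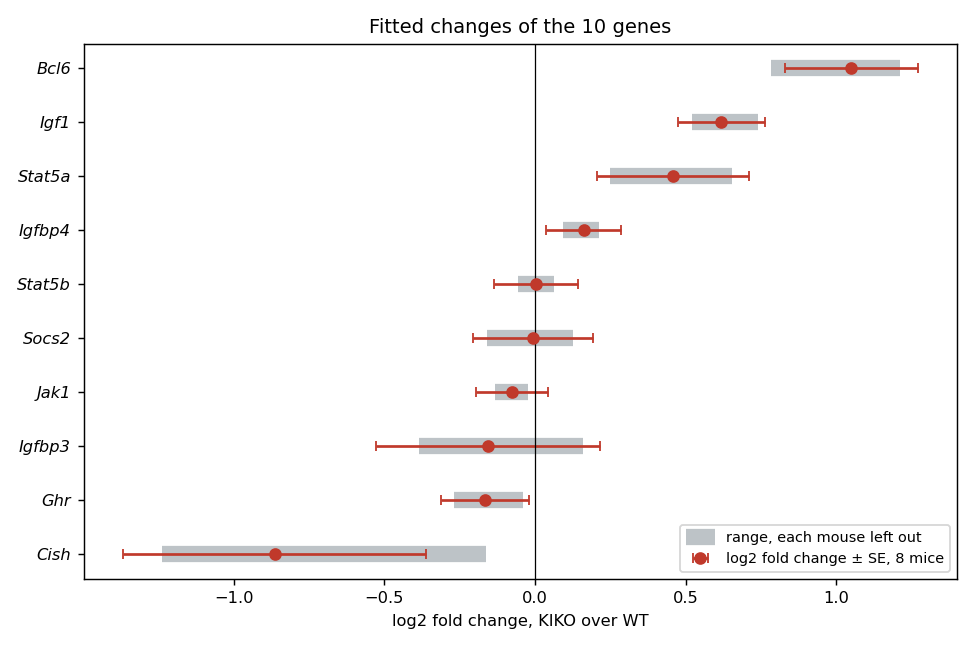
Log2 fold change of KIKO over WT mice from edgeR for each of the 10 genes (point, with bars of 1 SE, 4 mice per group), ordered by size, with grey bars for the range over the fits that leave out each mouse in turn. The ranges of *Bcl6* (0.78 to 1.21) and *Igf1* (0.52 to 0.74) stay above 0, and that of *Cish* is the widest (-1.24 to -0.16).

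Set against exon length, *Igfbp4* was the most abundant member, at 154 CPM per kb over the 8 mice. *Ghr* (68.4 CPM per kb), *Jak1* (48.8 CPM per kb) and *Igf1* (43.4 CPM per kb) came next, and each overlapped with the next of these, although *Ghr* was above *Jak1* in 7 of 8 mice. The lowest level of *Igf1* in any mouse (32.2 CPM per kb) was above the highest of *Stat5b* (6.34 CPM per kb, with a mean of 5.66). From there the ranges of neighbours overlapped, with *Bcl6* at 4.93, *Socs2* at 3.51, *Stat5a* at 3.11, *Igfbp3* at 2.25 and *Cish* at 1.36 CPM per kb. This order holds only if reads fall along the whole transcript, and the paper and the labels name different library kits. Without division by length, *Igf1* (430 CPM) was above *Jak1* (353 CPM), and *Socs2* (33.4 CPM) and *Bcl6* (33.0 CPM) were above *Stat5b* (31.3 CPM). *Ghr* and *Igf1* had higher means than *Stat5a*, *Stat5b*, *Socs2* and *Cish* on both scales.

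To see whether the members moved together between mice of 1 genotype, the genotype mean was taken from the log2 level of each gene. Of 45 pairs of members, 7 had a Pearson's r above 0.5 and 10 below -0.5, with a median of -0.07 and a range of -0.86 (*Stat5a* and *Igfbp3*) to 0.81 (*Stat5a* and *Igf1*). Of the 9 relations of *Bcl6* with another member, the strongest was with *Ghr*, which was lower in mice with more *Bcl6*. Its Pearson's r was -0.81 (p = 0.0521, exact permutation within genotype, 2-sided, n = 8; 0.234 after Benjamini-Hochberg adjustment over 9 relations). Its Spearman's rho was -0.88 (p = 0.0191, exact permutation, n = 8; 0.172 adjusted). Without KIKO mouse 1 and WT mouse 2, the mice farthest from the median of *Bcl6*, r was -0.73. The relation with *Igfbp4* had an r of -0.78 (p = 0.0156, exact permutation, n = 8; 0.141 adjusted) and a rho of -0.62 (p = 0.0747, exact permutation, n = 8; 0.224 adjusted), and rested on those mice, with an r of -0.18 without them. None of the 9 passed 0.05 after adjustment. Library composition is shared by all genes of a mouse, and its part was not tested.

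**Figure D3:**
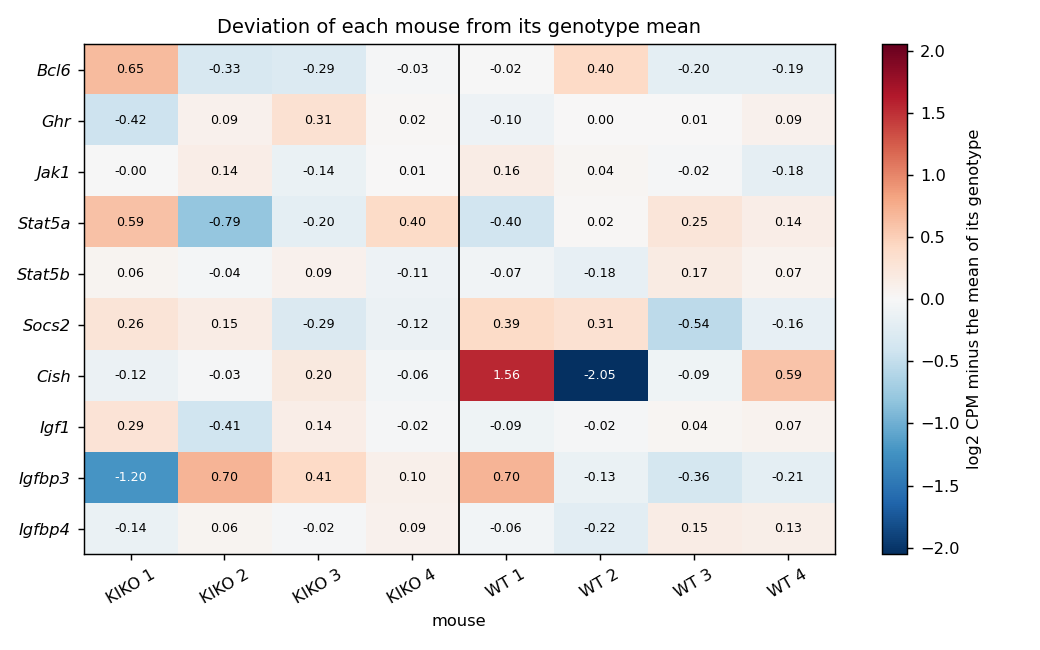
Deviation of each mouse from the mean of its genotype (log2 CPM, colour scale and printed value) for the 10 genes in rows and the 4 KIKO and 4 WT mice in columns. KIKO mouse 1 is high in *Bcl6* (0.65) and low in *Ghr* (-0.42) and *Igfbp3* (-1.20), and the largest deviations are those of *Cish* in WT mice 1 and 2 (1.56 and -2.05).

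Among the genes whose level followed *Bcl6* most closely over the 8 mice with genotype means removed were *Trir* (r = 0.96), *S100pbp* (0.96), *1110008L16Rik* (0.95) and *Preb* (0.95). *Arpc3*, a subunit of the ARP2/3 complex of actin (-0.99), *F8*, coagulation factor VIII (-0.98), and *Prkar2b*, a regulatory subunit of protein kinase A (-0.97), ran most against it. *Prkar2b* had 420, 588, 560 and 518 CPM in KIKO mice 1 to 4, against 647, 512, 703 and 667 CPM in WT mice 1 to 4, and was thus lowest in the mouse of each genotype that had the most *Bcl6*. These are the extremes of 11080 genes over 8 mice and are a description.

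The rest of the pathway was read from lists of genes around the members, of which 3 held a gene that passed, each lower in KIKO mice. Of all genes tested, 44 of 11080 (0.397%) were lower. The lists were written with earlier results of these data known, so their counts and medians are a description. Neither the GH receptor and JAK-STAT signalling list nor the list of JAK-STAT inhibitors held a gene that passed, although *Ptprc* of the second did so with a length trend. In the first, 0 of 16 tested genes passed in either direction, with a median log2 fold change of 0.01 and a range of -0.33 to 0.20. The 3 genes with the smallest p were *Prlr*, the prolactin receptor (-0.33, SE 0.15, adjusted p = 0.297 from edgeR; -0.10 with a length trend), *Tyk2*, a JAK kinase (-0.25, SE 0.19, adjusted p = 0.544; -0.12 without WT mouse 3), and *Shc1*, an adaptor of receptors (0.20, SE 0.15, adjusted p = 0.550). *Stat4* was not tested. Without WT mouse 3, the list of BCL6 relatives below had 3 lower genes. That of genes known to respond to GH or STAT5 had 2 lower genes in this fit. The IGF and insulin receptor axis had 1 higher and 1 lower gene, and the lymphocyte list had 1 higher and 1 lower. More genes passed over the whole series in the same fit, with 285 higher and 369 lower of 11261 tested. With all mice, 31 were higher and 44 lower of 11080, so the added list genes are not read as specific to these lists. Among JAK-STAT negative regulators, 0 of 14 tested genes passed and the median was -0.01, and *Socs1* was not tested. *Ptprc*, the leukocyte phosphatase CD45, had 62.2 to 78.7 CPM in KIKO and 38.5 to 54.9 CPM in WT mice, with a log2 fold change of 0.46 (SE 0.14, adjusted p = 0.131 from edgeR), and of 0.72 with a length trend (adjusted p = 0.0422). *Pias4*, a SUMO ligase, was at -0.55 (SE 0.18, adjusted p = 0.153) and *Socs6* at 0.41 (SE 0.14, adjusted p = 0.170).

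Of 18 tested genes of the IGF and insulin receptor axis, 0 passed and the median was 0.06, with *Igf2*, *Igfbp1*, *Pappa*, *Pappa2* and *Stc1* not tested. The insulin receptor *Insr* had 39.9, 48.0, 42.1 and 41.9 CPM in KIKO mice 1 to 4, against 71.6, 72.1, 52.9 and 63.3 CPM in WT mice 1 to 4. Its groups did not overlap, with a log2 fold change of -0.60 (SE 0.14, adjusted p = 0.063 from edgeR), and of -0.39 with a length trend. *Igfbp7*, a binding protein that vascular cells secrete, had 225 to 268 CPM in KIKO and 170 to 195 CPM in WT mice (log2 fold change 0.46, SE 0.11, adjusted p = 0.075). The IGF1 receptor *Igf1r* was at -0.39 (SE 0.16, adjusted p = 0.234), or -0.14 with a length trend.

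Of 18 tested corepressors of BCL6 and relatives with a BTB domain and zinc fingers, 1 was lower, none was higher and 17 did not pass, with a median of 0.04. The gene that passed was *Zbtb16*, which encodes the repressor PLZF. It had 78.9, 187, 83.3 and 105 CPM in KIKO mice 1 to 4, against 461, 281, 161 and 272 CPM in WT mice 1 to 4, so that KIKO mouse 2 and WT mouse 3 crossed. Its log2 fold change was -1.38 (SE 0.29, adjusted p = 0.0453 from edgeR), and on 7 mice was nearest to 0 without WT mouse 1 (-1.08). On 7 mice it passed only without KIKO mouse 2 (-1.72) or WT mouse 3 (-1.58). It did not pass with a length trend (adjusted p = 0.064 from edgeR). *Zbtb20*, a repressor best known from liver, was at -0.46 (SE 0.15, adjusted p = 0.156), or -0.09 with a length trend, and *Zbtb7a* at -0.41 (SE 0.14, adjusted p = 0.167).

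A list of genes that BCL6 represses in lymphocytes had a median of -0.32 over 10 tested genes, of which 1 was lower, none was higher and 9 did not pass. Of all genes tested, 0.397% were lower. This list too was written with earlier results of the data known, and repression by BCL6 in vWAT was not tested. *Irf4*, an interferon regulatory factor, had 8.25, 13.6, 4.86 and 10.5 CPM in KIKO mice 1 to 4, against 70.1, 22.1, 20.7 and 25.1 CPM in WT mice 1 to 4. All KIKO mice lay below all WT mice, and WT mouse 1 stood far above the rest. The log2 fold change was -1.90 (SE 0.39, adjusted p = 0.0442 from edgeR), -1.30 without WT mouse 1 and -2.08 without WT mouse 3, which were the only fits on 7 mice in which it passed. With a length trend it was -1.89 and did not pass (adjusted p = 0.0565 from edgeR). *Id2*, an inhibitor of helix-loop-helix factors, had 93.4, 83.1, 83.3 and 90.2 CPM in KIKO mice 1 to 4, against 46.0, 53.0, 72.0 and 52.2 CPM in WT mice 1 to 4. Its log2 fold change was 0.65 (SE 0.14, adjusted p = 0.054), and that of *Bcl2l1*, which encodes the survival factor BCL-XL, was -0.62 (SE 0.22, adjusted p = 0.173). *Prdm1*, *Cd69*, *Ccl3*, *Cxcl10*, *Cd80* and *Chek1* were not tested.

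Of 16 tested genes known to respond to GH or STAT5, 1 was lower, none was higher and 15 did not pass, with a median of 0.03. *Cebpd*, a transcription factor of early adipogenesis, had 30.7, 32.0, 23.0 and 29.9 CPM in KIKO mice 1 to 4, against 107, 55.7, 34.8 and 68.3 CPM in WT mice 1 to 4. All KIKO mice lay below all WT mice, of which WT mouse 3 was the nearest. The log2 fold change was -1.20 (SE 0.26, adjusted p = 0.0464 from edgeR), with a range of -1.41 to -0.88 on 7 mice, of which it passed only without WT mouse 3. With a length trend it was -1.23 and did not pass (adjusted p = 0.0607 from edgeR). The immediate early gene *Egr1* was at 0.69 (SE 0.21, adjusted p = 0.127) and *Aox1*, an aldehyde oxidase, at -0.46 (SE 0.16, adjusted p = 0.173), with *Myc* and *Onecut1* not tested. Endothelial markers were looked at beside these lists, and 8 of 8 had a log2 fold change below 0. Their summed level overlapped, at 442 to 729 CPM in KIKO and 679 to 872 CPM in WT mice. Of the 8, 1 passed and was lower, *Robo4*. Their part in the levels of the listed genes was not tested.

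**Figure D4:**
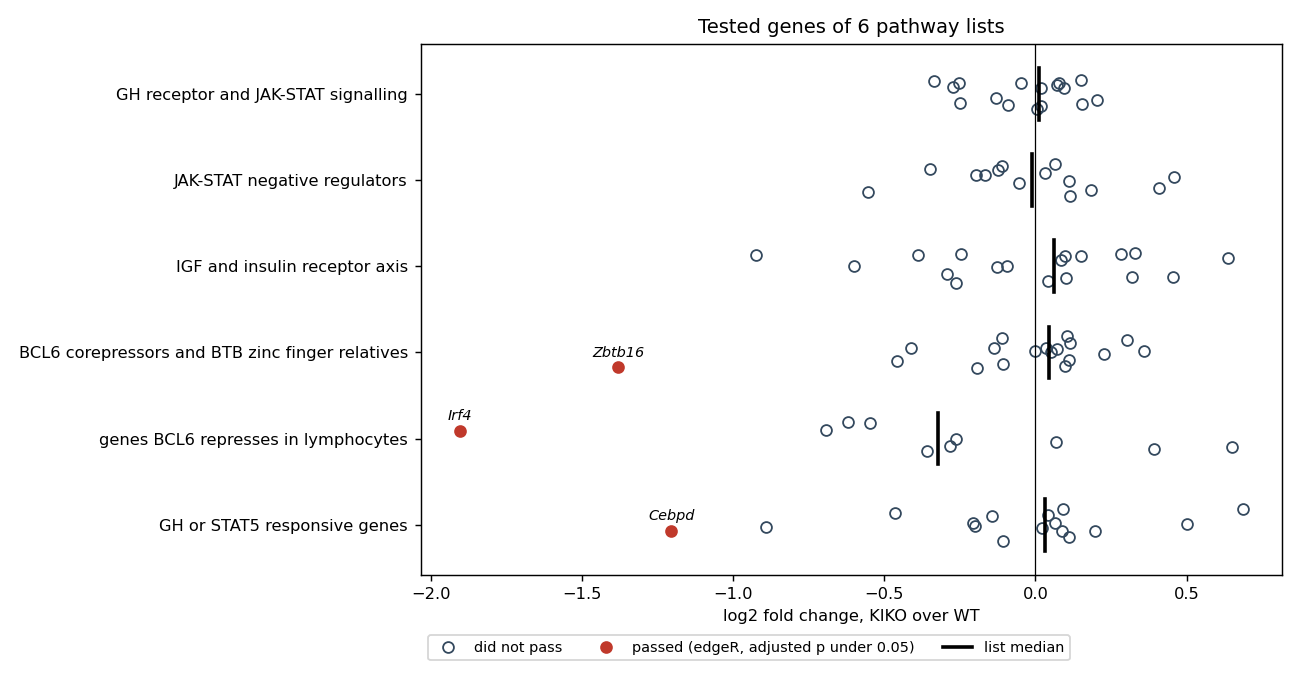
Log2 fold change of KIKO over WT mice for each tested gene of 6 lists around the members, with 1 point per gene, filled where the gene passed edgeR's test (adjusted p under 0.05), and a black line at the median of each list. *Zbtb16* (-1.38), *Irf4* (-1.90) and *Cebpd* (-1.20) are the only filled points, and the other points lie on both sides of 0.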

How the data were processed

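The authors sequenced vWAT RNA of 8 mice, trimmed reads with Trimmomatic, aligned them to GRCm38 with HISAT2 and, per the paper's methods, used StringTie and DESeq2. Paper and labels name different kits and instruments, and the annotation release is not given in the sources used here. The deposited tables hold raw counts per Ensembl gene and log2 values, which equal log2 of the count over a size factor plus 1 and served for an alternative only. The 10 members and all lists were chosen with earlier results of these data known.

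The counts were fitted in edgeR 4.0.16 (R 4.3.3) with filterByExpr by genotype, TMM normalization, a quasi-likelihood test for genotype without covariates, and Benjamini-Hochberg adjustment over 11080 genes, with 0.05 as the threshold. SDs rest on 4 mice per group. Symbols and positions came from GENCODE M21, in which 31011 of 31053 genes were found. From each list the genes that passed and the 3 with the smallest p are named. The targeted gene and 1 gene whose level followed *Bcl6* are not reported here. Correlations used log2 of CPM plus 0.5. Alternatives were other scalings and filters, DESeq2 1.42.0, limma 3.58.1, a length trend (mgcv 1.9.3), the replicate number as a block, and leaving out each mouse. The steps were tested on simulated data.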

Additional observations from a re-analysis of the deposited data

Results flagged for a closer look

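In 3 of 56 groups of 4 mice, a mouse lay far from the other mice of its genotype by Dixon's ratio, which chance alone gives in about 1 in 20 groups. *Igfbp3* was at 11.7 CPM in WT mouse 1, where the next WT mouse had 6.36 CPM and the lowest 5.35 CPM. *Irf4* was at 70.1 CPM in the same WT mouse 1, where the next had 25.1 CPM and the lowest 20.7 CPM. *Ptprc* was at 38.5 CPM in WT mouse 3, where the next had 52.3 CPM and the highest 54.9 CPM.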

How the results depend on the processing

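The 10 members kept their log2 fold change within 1 SD of the replicates in all 190 alternative values, although *Stat5b*, *Socs2*, *Jak1* and *Igfbp3* lay near 0 and changed sign in some. That SD was wide for *Cish* (1.08) and *Igfbp3* (0.68), so the rule says little of these 2 genes. *Cish* ranged from -1.24 to -0.16 with each mouse left out. The number of genes that passed, 75 with edgeR and 8 mice, was less stable. It was 382 of 18092 with no filter on low counts, 259 of 6868 in DESeq2, 40 in limma-voom, 45 in limma-trend with a pseudocount of 1, and 37 with a length trend. With library totals only, 18 were higher and 49 lower, against 31 and 44 with TMM. Leaving out 1 mouse gave 0 to 654 genes: 0 without KIKO mouse 4 (1328 at an unadjusted p under 0.05), WT mouse 2 (1344) or WT mouse 4 (1533), and 654 without WT mouse 3. The single lower gene of the BCL6 relatives was lost in 10 of 19 alternatives, that of the lymphocyte list in 10 and that of the GH or STAT5 list in 12. With the replicate number as a block, 0 genes passed in edgeR (1427 at an unadjusted p under 0.05), and the log2 fold change of *Bcl6* was 1.02. Mice of the same number did not deviate together (correlations of -0.152 to 0.0285), so the numbers were taken not to pair mice. Depth limits *Cish* and *Igfbp3* most, with as few as 5 and 7 counts in a library.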
